A study of Mus musculus with 12 samples.

Results

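The genes described here are 10 components of the transforming growth factor beta (TGF-beta) pathway, namely the ligands Tgfb1, Tgfb2, Tgfb3 and Bmp4, the receptors Tgfbr1 and Tgfbr2, and the SMAD genes Smad2, Smad3, Smad4 and Smad7. They were matched by gene symbol, and all 10 were found among the 12484 genes that at least 1 of 3 deposited tables lists. The shCDC73 table held all 10, while the shCTR9 and shMYC tables held 9 each, without Tgfb2. RNA was sequenced from KPC cells, a mouse line from a pancreatic ductal tumor. They carried a doxycycline-inducible shRNA against Ctr9 (shCTR9), Cdc73 (shCDC73) or Myc (shMYC), or against luciferase as a control (shLuciferase). By the labels all 4 groups, controls included, received doxycycline at 1 µg/ml for 48 h, and each has 3 libraries, 12 in all. CTR9 and CDC73 are subunits of PAF1c, a complex that travels with elongating RNA polymerase II. The shRNAs against Ctr9 and Cdc73 were introduced with lentivirus and puromycin selection, and the shMYC cells came from earlier work. All groups are derivatives of a single tumor line in culture.

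TGF-beta ligands are secreted in a latent form and act on neighboring cells and on the cells that make them. The ligand binds the type II receptor TGFBR2, which phosphorylates the type I receptor TGFBR1, and this in turn phosphorylates SMAD2 and SMAD3. These join SMAD4, enter the nucleus and regulate transcription, while SMAD7 is induced by the pathway and blocks the receptor. BMP4 uses a separate set of receptors and SMADs but shares SMAD4. In human pancreatic cancer SMAD4 is often lost, and the pathway is known both for growth arrest of epithelial cells and for driving their mesenchymal change.

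The value used for each gene is the authors' mean log2 CPM (read counts scaled to a common library size), and each table gives 1 such mean. By the methods and labels it pools the 3 libraries of a depletion with the 3 shLuciferase libraries, and it is called here the shCTR9, shCDC73 or shMYC mean. The deposited mean carries no spread between libraries, so no SD, n or test is attached to any value, and the depth of the libraries was not used here. The level in depleted cells alone and that in control cells alone are not analysed here. Because the same control libraries enter every mean, a gene lost altogether in 1 depletion would lower its mean by about 1 on the log2 scale. The tables were normalized separately, and over the 11591 genes they share the median of the per-gene differences was −0.12 for shCTR9 minus shMYC, −0.15 for shCDC73 minus shMYC and 0.01 for shCTR9 minus shCDC73. Differences between tables are therefore given after this shift is subtracted.

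The targets of the shRNAs and the markers of the cell type bear on the labels. Each target had its lowest mean in its own table. Ctr9 averaged 16.5, 41.7 and 24.99 CPM in the shCTR9, shCDC73 and shMYC means, Cdc73 41.2, 21.9 and 37.3 CPM, and Myc 155, 178 and 118 CPM. Many genes differed as much. Less the shift, 24.1% of shared genes did for Ctr9 in shCTR9 minus shMYC and 0.647% in shCTR9 minus shCDC73. For Cdc73 the shares were 19.8% in shCDC73 minus shMYC and 2.67% in shCTR9 minus shCDC73. For Myc they were 21.3% in shCTR9 minus shMYC and 12.7% in shCDC73 minus shMYC. Of 10 ductal carcinoma markers, 8 were listed in the shCTR9 table, 7 in the shCDC73 table and 8 in the shMYC table. The keratin genes Krt8, Krt18 and Krt19 lay above percentile 99.5 of all genes in every table, whereas Epcam and Cldn4 were in none. The summed level of the 7 ductal markers listed in every table was 9574, 6899 and 8804 CPM in the shCTR9, shCDC73 and shMYC means, and the ductal transcription factor gene Sox9 had 12.7, 18.6 and 3.56 CPM. Of 27 markers of fibroblasts, leukocytes, endothelium, acinar and islet cells, 24 were in no table, among them Col1a1, Ptprc, Pecam1 and Prss1, and the other 3 (Pdgfra, Cd68 and Cela1) were at most at 6.90 CPM.

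Among the ligands, Tgfb1 was the main transcript and the others were scarce. Tgfb1, which encodes the founding member of the family, averaged 30.8 CPM in the shCTR9, 25.3 CPM in the shCDC73 and 48.3 CPM in the shMYC mean. These levels lay at percentiles 52.1, 48.0 and 62.1 of all genes of their tables, close to the middle. Tgfb3 averaged 3.02, 5.12 and 4.44 CPM in the same order, which put it between percentiles 11.2 and 17.0. Tgfb2 averaged 1.58 CPM in the shCDC73 mean, at percentile 5.05. Where it is not listed, no level can be given. The authors removed genes with few reads, but a missing row need not mean a low level, since the keratin gene Krt7 averaged 243.5 CPM in the shCTR9 and 109.0 CPM in the shMYC mean and had no row for shCDC73. The lowest gene kept averaged 0.483 CPM in the shCTR9 table and 0.452 CPM in the shMYC table. Per kilobase of exon, the Tgfb1 level was 6.84 times that of Tgfb3 in the shCTR9 mean, 3.32 times in the shCDC73 mean and 7.30 times in the shMYC mean.

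Bmp4, the only BMP ligand gene among the members, was the lowest of the members listed in the shCTR9 and shMYC tables, which lack Tgfb2. Of the members listed in every table it varied most between tables. It averaged 0.712 CPM in the shCTR9, 3.11 CPM in the shCDC73 and 1.06 CPM in the shMYC mean, at percentiles 0.476, 11.6 and 2.42. The shCDC73 mean was thus 4.38 times the shCTR9 mean. On the log2 scale, less the median shift, the difference was −2.14 for shCTR9 minus shCDC73, 1.71 for shCDC73 minus shMYC and −0.46 for shCTR9 minus shMYC. Of the 11591 shared genes, 0.129% differed as much as Bmp4 in the first of these, 1.20% in the second and 26.0% in the third. Scarce genes vary more, and among the 1250 shared genes with a mean below 2 on the log2 scale these shares were 0.560%, 3.04% and 41.1%. How many of the 3 shCDC73 libraries carry the higher Bmp4 level cannot be read from a mean.

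**Figure D1:**
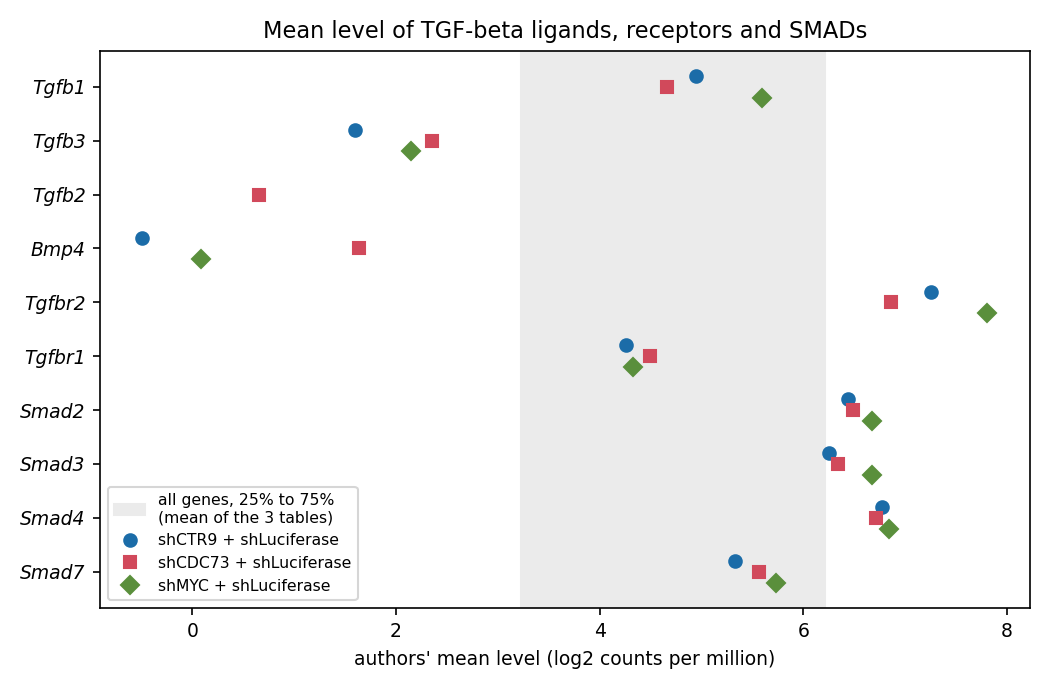
Mean level of each of the 10 genes on the horizontal axis (log2 CPM, the authors' mean over the libraries of a depletion and the shLuciferase libraries), with 1 symbol per table and the range from the 25% to the 75% quantile of all genes (mean of the 3 tables) shaded. Tgfbr2 and the SMAD genes other than Smad7 sit at or above the upper edge of the shading, Tgfb1, Tgfbr1 and Smad7 within it, and Tgfb2, Tgfb3 and Bmp4 below it. Levels are not divided by gene length.

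The receptor pair was unequal. Tgfbr2, which encodes the ligand-binding type II receptor, averaged 153 CPM in the shCTR9, 116 CPM in the shCDC73 and 224 CPM in the shMYC mean. It was the member with the highest CPM in all 3 tables, at percentiles 88.8, 85.3 and 93.0 by CPM. Ranked per kilobase of exon, it lay lower among all genes, at percentiles 73.7, 69.0 and 79.7. Tgfbr1, which encodes the type I receptor that passes the signal to SMAD2 and SMAD3, averaged 19.1, 22.5 and 20.1 CPM, below the median gene of each table. Per kilobase of exon, the Tgfbr2 level was 6.39 times that of Tgfbr1 in the shCTR9 mean, 4.12 times in the shCDC73 mean and 8.91 times in the shMYC mean. The ratio differed between tables mainly through Tgfbr2, whose highest mean was 1.93 times its lowest, against 1.18 times for Tgfbr1.

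The SMAD genes were above the middle of the tables, by CPM Smad7 less so than the other 3. Smad2 averaged 86.7 CPM in the shCTR9, 89.4 CPM in the shCDC73 and 102 CPM in the shMYC mean, and Smad3 averaged 76.2, 81.1 and 102 CPM. Both encode SMADs that the receptor phosphorylates directly, and they lay between percentiles 75.8 and 81.3 by CPM. Ranked per kilobase of exon, Smad2 lay at percentiles 59.7, 61.5 and 61.6, and Smad3 at 67.4, 69.6 and 72.3. Per kilobase of exon the Smad2 level was 0.718, 0.696 and 0.634 of that of Smad3. Smad4, which encodes the partner common to the TGF-beta and BMP branches, averaged 109.6, 105 and 114 CPM, at percentiles 83.2, 83.3 and 83.5. Smad7, the inhibitory SMAD gene, averaged 40.2, 47.4 and 53.2 CPM and was the lowest of the SMAD genes by CPM in every table. Ranked per kilobase of exon it lay at percentiles 57.2, 62.3 and 61.9, slightly above Smad2 in the shCDC73 and shMYC tables.

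Levels of different genes can be compared only per length, and by CPM per kilobase of annotated exon the order was nearly the same in the 3 tables. Smad4 came first with 28.2 to 30.8 CPM per kilobase over the tables, and its range did not touch that of the next gene. Tgfbr2 followed with 14.2 to 27.4 and Smad3 with 13.8 to 18.4, and these ranges overlapped. Smad7 (8.89 to 11.8) and Smad2 (9.88 to 11.7) also overlapped each other, and both lay above Tgfb1 (5.02 to 9.58) within each table. Tgfbr1 ranged from 2.92 to 3.44, Tgfb3 from 0.893 to 1.51 and Bmp4 from 0.317 to 1.39, while Tgfb2 stood at 0.273. Bmp4 and Tgfb3 overlapped. The place of Tgfb1 depends on the length used, because its annotated exons add up to 5.04 kb but its longest protein-coding transcript has 2.18 kb. On the latter length, Tgfb1 came to 14.2, 11.6 and 22.2 CPM per kilobase and took places 4, 4 and 3 among the members.

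Tgfb1 and Tgfbr2 both had their highest mean in the shMYC and their lowest in the shCDC73 table, as had Smad4 as deposited. Less the median shift, Tgfb1 was at −0.53 for shCTR9 minus shMYC and −0.78 for shCDC73 minus shMYC on the log2 scale, and Tgfbr2 at −0.43 and −0.79. Of all shared genes, 19.8% and 11.6% differed as much as Tgfb1, and 28.5% and 11.0% as much as Tgfbr2. Tgfb3 was at −0.77 for shCTR9 minus shCDC73, a size that 3.95% of genes reached. At 3.02 to 5.12 CPM Tgfb3 is scarce, and scarce genes vary more. The SMAD genes stayed close to the shift. Smad2, Smad4 and Smad7 were between −0.28 and 0.06 in these 3 differences and Smad3 between −0.30 and −0.10. The signs of Smad4 against shMYC depend on the shift, since as deposited it was at −0.06 for shCTR9 minus shMYC and −0.13 for shCDC73 minus shMYC, against 0.06 and 0.02 after the shift was subtracted. The largest of the 3 differences of a gene, regardless of sign, was 0.06 for Smad4, a size reached by 98.5% of shared genes, 0.12 for Smad2 (93.9%), 0.28 for Smad7 (70.5%) and 0.30 for Smad3 (68.1%). It was 0.32 for Tgfbr1 (65.4%) and 0.42 for the median gene. Another shift changes these small values. The medians of the tables over the shared genes were lower by 0.20 in the shCTR9 and by 0.23 in the shCDC73 table than in the shMYC table, and with each table set to its own median the means of Smad2 spanned 0.07, those of Smad4 0.14, those of Smad3 0.22 and those of Smad7 0.26.

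Over the 9 genes listed in all tables, 1 differed by at least 0.5 for shCTR9 minus shMYC (11.1% of them, against 22.3% of all shared genes), 3 for shCDC73 minus shMYC (33.3%, against 29.1%) and 2 for shCTR9 minus shCDC73 (22.2%, against 11.6%). Of the 9, 2 lay above and 7 below the shift in the first difference, 4 above and 5 below in the second, and 3 above and 6 below in the third. As deposited the split was 0 above and 9 below in the first, and 3 above and 6 below in each of the others. The median of all shared genes was itself at −0.12, −0.15 and 0.01 as deposited. The share of all genes below was not computed, so whether the split is particular to the members cannot be told. The median member differed by −0.30, −0.01 and −0.10 after the shift was subtracted. Since all means share the control libraries, these differences are not independent of each other.

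**Figure D2:**
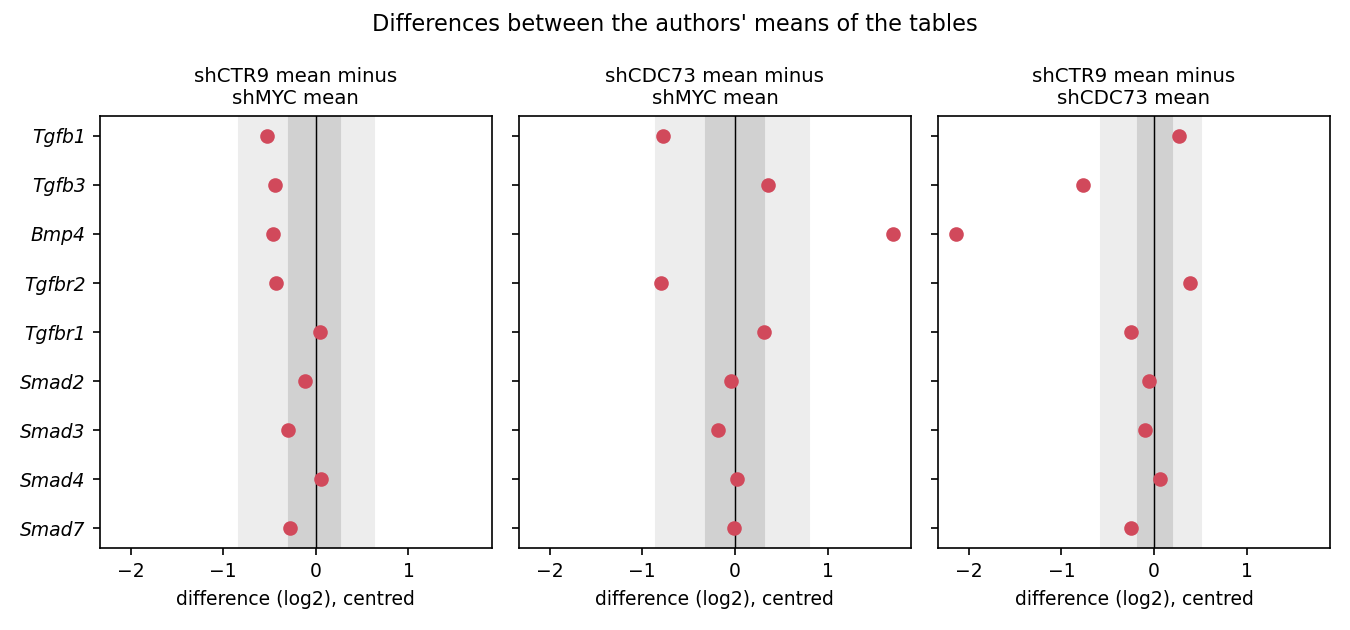
Difference between the means of pairs of tables for the 9 genes listed in all of them (horizontal axis, log2 scale, less the median over the 11591 shared genes; points, 1 per gene). Dark shading spans the 25% to 75% quantiles of all shared genes and light shading the 5% to 95% quantiles. Bmp4 lies outside the light shading in the panels that involve shCDC73, with 1.71 and −2.14, and Tgfb3 in the last panel, with −0.77.

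The 10 genes lie on 7 chromosomes. In the RefSeq annotation of GRCm38, the assembly also called mm10, Tgfb1 spans 18.1 kb on chromosome 7 (25687002 to 25705077), Tgfb2 86.9 kb on chromosome 1 (186622787 to 186709697) and Tgfb3 22.3 kb on chromosome 12 (86056743 to 86079041). Bmp4 is the shortest, with 7.15 kb on chromosome 14 (46383525 to 46390669) and 4 exons in its longest coding transcript. Tgfbr1 spans 61.7 kb on chromosome 4 (47353222 to 47414926) and Tgfbr2 87.7 kb on chromosome 9 (116087695 to 116175363). Smad3 is the longest, with 111 kb on chromosome 9 (63646766 to 63757994). Smad2 (76241090 to 76311748, 70.7 kb), Smad4 (73634790 to 73703791, 69.0 kb) and Smad7 (75367365 to 75395935, 28.6 kb) are on chromosome 18. Genes annotated on the opposite strand overlap 2.14% of the exonic bases of Tgfb2, 3.96% of those of Bmp4 and, for a pair of them, 4.82% and 7.60% of those of Tgfb3. None of them was in any table. The libraries kept strand, but the strand setting of the count is not stated, so their reads cannot be told apart from those of the 3 ligand genes.

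Other genes of the pathway were taken from a list of 72 by role. Of these, 44 were listed in all 3 tables, 6 in some and 22 in none. The number listed was 46 for shCTR9, 48 for shCDC73 and 48 for shMYC, of which 22, 22 and 25 lay above the median of all genes. Their median was 4.64, 4.65 and 5.03 on the log2 CPM scale, where the median of all genes was 4.84, 4.78 and 4.996, and that of the members 5.33, 5.11 and 5.73.

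Other ligands and their antagonists were sparse, as the plot of levels by role shows. Of 9 further ligand and protease genes, only Bmp1, which encodes a protease that also cleaves collagen propeptides, was in all 3 tables, with 1.07 to 2.09 CPM per kilobase. Gdf11 reached at most 1.29 CPM per kilobase in the shCDC73 and shMYC tables, which also listed Inhba and Gdf15, and Bmp2 had 0.687 and was in the shCTR9 table. The activin and inhibin subunit genes Inha and Inhbb and the ligand genes Bmp6 and Bmp7 were in none. Of 8 antagonists, Lefty1, an inhibitor of nodal signaling, had 6.48 to 9.70 CPM per kilobase. Lefty1 has a close copy in the mouse genome, so its reads may be shared. Fstl3, an activin-binding protein gene, had 0.780 to 1.49 and Chrd 0.100 in the shMYC table alone, while Fst, Nog, Grem1, Fstl1 and Dcn were in none. Genes for latency and activation were mixed. Of 11, 7 were in all 3 tables and Ltbp2, Lrrc32 and Itgb8 in none, and 3, 3 and 5 of those listed lay above the median gene in the shCTR9, shCDC73 and shMYC tables. Nrros had 0.233 to 0.598 CPM per kilobase, and Ltbp4, listed for shCTR9 and shCDC73, 0.326 and 0.268. Furin, a protease that cleaves the TGF-beta precursor, had 12.1 to 16.1 CPM per kilobase, Ltbp3, which anchors the latent complex in the matrix, 8.42 to 12.6, and Itgav, the integrin chain that helps to release active ligand, 7.44 to 12.5.

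**Figure D3:**
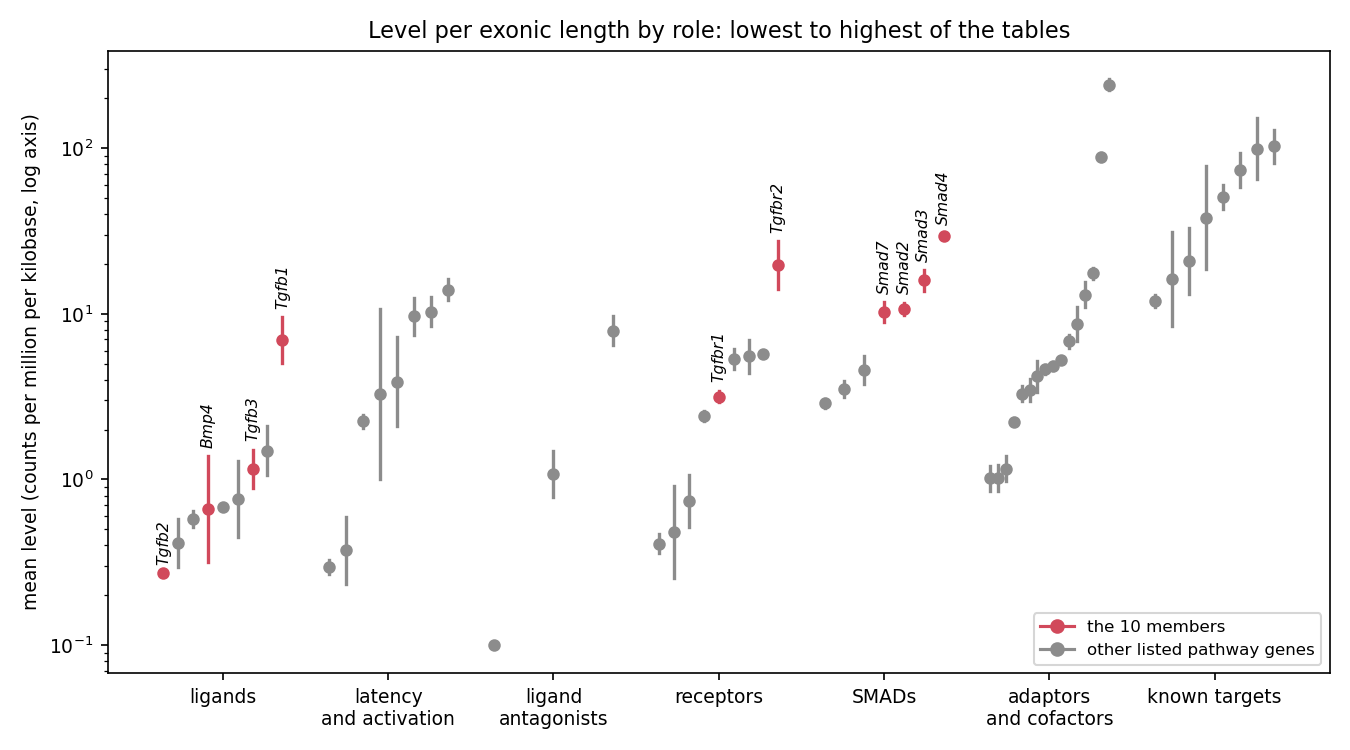
Level per kilobase of annotated exon (vertical axis, CPM per kilobase, log axis) of the 10 genes and of the other listed pathway genes with a value, ordered within each role by level. Lines run from the lowest to the highest of the tables and points mark the geometric midpoint of that range. Tgfb1 is the highest of the ligands, Tgfbr2 of the receptors and Smad4 of the SMADs.

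Other SMADs lay below the member SMADs, and other receptors lay below Tgfbr2 while 3 of them lay above Tgfbr1. The activin receptor gene Acvr1b had 5.55 to 5.81 CPM per kilobase, Acvr1, a type I receptor of the BMP branch, 4.42 to 6.91, and the BMP receptor gene Bmpr1a 4.61 to 6.10, all above the 2.92 to 3.44 of Tgfbr1 and below the 14.2 to 27.4 of Tgfbr2. The co-receptor gene Tgfbr3 and the decoy receptor gene Bambi were among 6 of 13 in no table. The inhibitory gene Smad6 had 3.77 to 5.55 CPM per kilobase, and Smad5 and Smad1, whose products act downstream of BMP receptors, had 3.15 to 3.92 and 2.72 to 3.08. Smad9 was in no table. Adaptors and cofactors were present in 16 of 17 cases. Fkbp1a, which encodes a protein that binds the type I receptor and many other partners, had 224 to 261 CPM per kilobase, Strap, which binds both receptors, 83.2 to 94.0, and the co-repressor gene Tgif1 16.2 to 19.0.

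Known transcriptional targets of the pathway included Ccn2, Id2 and Id1 at 57.9 to 151 CPM per kilobase. The matricellular protein gene Ccn2 averaged 186, 433 and 249 CPM in the shCTR9, shCDC73 and shMYC means. Id2 and Id1, which encode inhibitors of basic helix-loop-helix factors and are best known as BMP targets, averaged 199, 314 and 213 CPM and 94.5, 108 and 67.1 CPM. All 3 were thus highest in the shCDC73 mean, as were Bmp4, Tgfb3 and Tgfbr1. Less the shift, 6.82%, 14.4% and 9.44% of shared genes differed as much as Ccn2, Id2 and Id1 for shCDC73 minus shMYC. For shCTR9 minus shCDC73 these shares were 0.906%, 5.65% and 45.8%. For Tgfbr1 the shares were 49.7% and 38.3%, so several of these orderings rest on differences of common size. Some other listed genes, chosen after their values were seen, were highest in the shMYC mean. So were Tgfb1, Tgfbr2, Smad2, Smad3, Smad4 and Smad7 as deposited, and the median of all shared genes. Pmepa1, an inhibitor of receptor signaling, averaged 66.3, 64.5 and 162 CPM in the shCTR9, shCDC73 and shMYC means. Thbs1, an activator of latent TGF-beta, averaged 6.11, 18.9 and 64.9 CPM, and the integrin gene Itgb6, whose product frees the active ligand, 14.9, 17.4 and 51.3 CPM. Less the shift, their differences for shCTR9 minus shMYC ran from −3.29 (Thbs1) to −1.17 (Pmepa1). Those for shCDC73 minus shMYC ran from −1.63 (Thbs1) to −1.18 (Pmepa1). Of shared genes, 0.112% differed as much as Thbs1 and 2.62% as much as Pmepa1 in the former, and 1.41% and 3.60% in the latter. In the other direction, and also chosen after its values were seen, went Cdkn1a, a cell cycle inhibitor gene with many other inputs. It averaged 111, 58.8 and 29.9 CPM. Of shared genes, 0.457% differed as much as Cdkn1a for shCTR9 minus shMYC and 4.18% for shCDC73 minus shMYC. These targets respond to several pathways, and whether their levels are linked with those of the 10 genes was not tested.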

How the data were processed

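Poly(A) RNA of KPC cells was sequenced by the authors from strand-specific libraries. Per the methods, reads were mapped to mm10 with Bowtie2 (version 2.3.4.1 in the submitters' processing notes), samples were scaled to the mapped reads of the smallest, reads per gene were counted with featureCounts, genes with fewer than 5 reads were removed, and edgeR was run by the authors. Bowtie2 does not split reads over introns, which can lower the count of genes with many short exons. The annotation and strand setting of the count are not given in the sources used here.

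Only the deposited mean log2 CPM of each of 3 tables was used. The other columns, 4 per table, hold the authors' own comparisons (log2 fold change, likelihood ratio, p-value and adjusted p) and were not used. No values per library were analysed here, so no test was made, the planned test of counts could not be run, and differences between means are descriptions. Values were taken off the log scale to give CPM and divided by exonic length, the union of annotated exons in GENCODE release M21, which matched 94.6%, 94.8% and 94.6% of listed genes (shCTR9, shCDC73, shMYC). A percentile is the share of genes of a table at or below a value, by CPM unless stated. Percentiles per kilobase use only genes with an exonic length. Differences between tables were centered on the median of the per-gene differences over shared genes. Alternatives were other lengths, other sets of genes for the percentile, a minimum of 1 CPM and the linear scale.

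The members and lists were chosen with earlier results of these data known. Of the pathway list, up to 3 genes per role with the highest level per length are named, and a few others as marked. Scripts ran under Python 3.11.15 (numpy 2.4.6; pandas 2.3.3; figures by matplotlib 3.10.9) and were tested on simulated data. No sequence is printed.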

Additional observations from a re-analysis of the deposited data

How the results depend on the processing

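No paired analysis was possible because the deposited means carry no replicate numbers, and for the same reason no replicate could be left out. Places of the members by level were compared with those per length of annotated exon, over 9, 10 and 9 members in the shCTR9, shCDC73 and shMYC tables. With no division by length, 5, 5 and 4 members kept their place. The level of Tgfb1 per kilobase was 11.6 to 22.2 CPM with the length of the longest protein-coding transcript, an alternative chosen after seeing the data, and 5.02 to 9.58 CPM with all annotated exons. Centering on the median of the per-gene differences turned the sign of 3 differences between means, all small. Tgfbr1 stood at 0.045 and Smad4 at 0.059 for shCTR9 minus shMYC, and Smad4 at 0.025 for shCDC73 minus shMYC, against −0.07, −0.06 and −0.13 as deposited. The linear scale changed the sign of no difference. Another count test, a replicate block and leaving out a replicate were not run, since they need values per library. The missing spread between libraries limits every value.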
